A study of Homo sapiens with 10 samples.

Results

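The EGF receptor family was followed here through 9 genes, chosen by name. They are the ligands *AREG*, *EREG*, *TGFA* and *HBEGF*, the receptors *EGFR*, *ERBB2* and *ERBB3*, the receptor inhibitor *ERRFI1*, and *ADAM17*, the protease that releases the ligands from the cell surface. All 9 were among the 13029 genes of the *ZMAT3* experiment and the 17642 genes of the p53 experiment. RNA-seq was performed in 10 libraries of HCT116, a human colorectal cancer cell line, and the study asked which RNAs are regulated by ZMAT3, an RNA-binding protein whose gene is a p53 target, and by p53 itself. In the first experiment 3 cultures of a *ZMAT3*-WT clone were compared with 3 cultures of a *ZMAT3*-KO clone, isolated after CRISPR/Cas9 editing with a pair of guides around the p53 response element in an intron of *ZMAT3*. The edit lowers *ZMAT3* expression without removing the coding sequence, a single clone stands for each genotype, and the labels of these samples also carry the abbreviations EV and unt, which are not explained. In the second experiment cells were transfected for 72 hr with a control siRNA (siCTRL) or a pool of siRNAs against p53 (sip53), in 2 cultures each. The p-values therefore measure the spread between cultures of a clone or line, and not that between clones.

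The ligands of this family are made as membrane-anchored precursors, and metalloproteases such as ADAM17 cut them free so that they can act on the same or neighbouring cells. Ligand binding drives EGFR to pair with itself or with ERBB2, which has no known soluble ligand of its own, or ERBB3, whose kinase is weak, and the pair signals through the RAS-MAPK and PI3K pathways. Amphiregulin and epiregulin, the products of *AREG* and *EREG*, are known for their expression in colorectal tumours, and ERRFI1 (also called MIG6) is a feedback inhibitor that binds the receptor kinase.

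*AREG* and *EREG* are neighbours on chromosome 4 of hg38 (GENCODE release 44), where *EREG* runs from 74365145 to 74388749 and *AREG* from 74445136 to 74455005, both on the plus strand. A gap of 56386 bases separates them. *EGFR* runs from 55019017 to 55211628 on the plus strand of chromosome 7. RefSeq promoter windows of 300 bases (250 before and 50 after a start site, GRCh38.p14) were at hand for 8 of the 9 genes, as 10 windows in all; *ERBB3* was the gene without one. Windows of the neighbouring ligand genes are shown because their transcripts were the most abundant ligands measured, and a window of *EGFR* because it held the AP-1 letters. Capitals mark matches to 3 motifs searched on both strands, namely TGACGTCA (the cyclic AMP response element), TATAAA (the TATA box) and TGANTCA (AP-1). The windows are chr4:74444886-74445185, chr4:74364895-74365194 and chr7:55109589-55109888, all on the plus strand.
AREG: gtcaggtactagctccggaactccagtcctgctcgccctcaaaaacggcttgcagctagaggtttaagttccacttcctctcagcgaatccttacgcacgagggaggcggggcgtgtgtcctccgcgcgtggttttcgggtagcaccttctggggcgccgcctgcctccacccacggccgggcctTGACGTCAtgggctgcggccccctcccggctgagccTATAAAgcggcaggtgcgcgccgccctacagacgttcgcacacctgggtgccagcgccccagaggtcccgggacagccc
EREG: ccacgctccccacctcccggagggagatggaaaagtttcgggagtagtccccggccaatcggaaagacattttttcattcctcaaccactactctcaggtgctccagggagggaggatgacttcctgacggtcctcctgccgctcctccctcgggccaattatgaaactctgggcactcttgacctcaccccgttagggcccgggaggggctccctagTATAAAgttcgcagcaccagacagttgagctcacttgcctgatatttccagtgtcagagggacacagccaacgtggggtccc
EGFR: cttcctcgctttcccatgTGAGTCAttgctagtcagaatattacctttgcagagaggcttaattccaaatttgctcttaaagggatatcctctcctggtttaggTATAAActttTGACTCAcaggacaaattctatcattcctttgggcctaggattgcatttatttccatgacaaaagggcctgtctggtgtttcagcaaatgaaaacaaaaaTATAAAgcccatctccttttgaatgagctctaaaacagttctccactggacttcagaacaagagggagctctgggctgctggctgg
The *AREG* window held the cyclic AMP response element starting 65 bases before the start site and TATAAA starting 29 bases before it, and the *EREG* window held TATAAA starting 32 bases before. The *EGFR* window shown lies in intron 1, with its start site 90822 bases downstream of the first, and held TGAGTCA and TGACTCA starting 232 and 136 bases before that start site and TATAAA starting 146 and 36 bases before. None of the matches overlapped another. TGANTCA was found in 2 of the 10 windows of these genes (the other was that of *ERBB2*) against 7.71% of 35116 RefSeq windows, TGACGTCA in 1 against 1.85%, and TATAAA in 3 against 11.5%. The *ERBB2* match was TGATTCA, which the narrower JUN motif of the study (TGASTCA, S being C or G) does not include. The p53 half-site, searched by its consensus, was in 0 of the 10 windows and in 6.63% of all. These matches describe letters only; no binding was measured in these libraries, and the values below do not separate the transcripts of a gene.

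Both perturbations were visible in their targets. *ZMAT3* was at 5.00, 5.20 and 5.26 log2 CPM in *ZMAT3*-WT and at 2.25, 2.34 and 2.20 in *ZMAT3*-KO cells (log2 fold change −2.89, limma adjusted p = 3.763e-12). *CDKN1A*, a p53 target, was at 525 and 481 FPKM with siCTRL and at 34.2 and 37.7 with sip53 (log2 fold change −3.80, limma adjusted p = 0.008691). In *ZMAT3*-KO cells *CDKN1A* also fell, by 0.53 on the log2 scale (0.692-fold, limma adjusted p = 2.023e-08), short of the study's threshold of 1.5-fold. For p21, its protein, the study reported by immunoblot that levels were not altered by loss of ZMAT3. Read counts were not among the values analysed, so the depth of each library is unknown. The log2 CPM of the 6 *ZMAT3* libraries shared 1 distribution, and FPKM (fragments per kilobase of transcript, scaled to library size) summed to 708634 to 829230 in the siRNA libraries.

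Of the epithelial markers, the keratins were lower in every *ZMAT3*-KO library than in every *ZMAT3*-WT library. The sum of the 7 of 8 epithelial markers listed was 5760 to 6090 CPM in *ZMAT3*-WT and 3160 to 3240 CPM in *ZMAT3*-KO libraries, and its part in the results below was not tested. *KRT8* was at 11.61 to 11.72 log2 CPM in *ZMAT3*-WT and 10.68 to 10.73 in *ZMAT3*-KO libraries, *KRT18* at 10.45 to 10.5 and 9.63 to 9.7, *KRT19* at 9.54 to 9.64 and 7.79 to 7.85, and *KRT20* at 1.15 to 1.43 and −0.2 to −0.11. *EPCAM* was at 8.51 to 8.56 and 8.54 to 8.58 log2 CPM, *CDH1* at 6.28 to 6.36 and 6.32 to 6.41, and *CDX2* at 4.51 to 4.59 and 4.43 to 4.51, so these 3 markers of the same cells were close in both clones. *COL1A1*, the one of 5 fibroblast markers listed, was at 9.16 to 9.79 and 10.4 to 10.9 CPM, and *CD68*, the one of 5 blood cell markers listed, at 1.61 to 2.12 and 3.20 to 3.88 CPM. In the siRNA libraries all 8 epithelial markers summed to 3740 to 3980 FPKM with siCTRL and 3540 to 4170 with sip53, and the 2 of 5 markers listed for fibroblasts to 4.22 to 5.64 and 6.12 to 7.07 FPKM. The 2 blood cell markers listed there, *CD68* and *LYZ*, summed to 3.89 to 10.8 FPKM with siCTRL and 13.3 to 27.7 with sip53. Their directions were opposite: *CD68* was at 7.97 and 2.06 FPKM with siCTRL and 11.6 and 26.93 with sip53, and *LYZ* at 2.86 and 1.83 with siCTRL and 1.74 and 0.74 with sip53. The part of these markers was likewise not tested.

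Levels can be compared between genes on the FPKM scale, which divides by transcript length. In siCTRL cells *ERRFI1* had the highest mean of the 9 genes (177 FPKM), followed by *AREG* (143 FPKM) and *EREG* (108 FPKM). *ERBB2* (25.9 FPKM) and *TGFA* (25.5 FPKM) came next and overlapped between the 2 libraries. *EGFR* (18.7 FPKM), *ADAM17* (16.1 FPKM), *ERBB3* (11.4 FPKM) and *HBEGF* (4.45 FPKM) followed, and no other neighbours in this order overlapped. HCT116 cells thus carried far more RNA of *AREG* and *EREG* than of the other ligands measured. In bulk RNA, fewer cells expressing a gene and less RNA per cell cannot be told apart.

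The first comparison asked which of these RNAs differ when ZMAT3 is depleted. In *ZMAT3*-KO cells 3 of the 4 ligands and the inhibitor *ERRFI1* were lower, while *EGFR*, *ERBB3* and *ADAM17* were higher. The changes were small: the log2 fold changes of the 9 genes ran from −0.45 to 0.38. At a limma adjusted p under 0.05, 3 of the 9 genes were higher and 4 lower, against a background of 28.7% of all 13029 genes higher and 30.1% lower. None of the 9 (0, limma) also reached the fold change of 1.5 that the study required, a pair of thresholds that 8.96% of all genes passed; 7 of the 9 had an unadjusted p under 0.05. The values of the clones did not overlap for 7 of the 9 genes, against 64.2% of all genes. The median absolute log2 fold change of the 9 genes was 0.19, beside 0.17 for all genes.

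**Figure D1:**
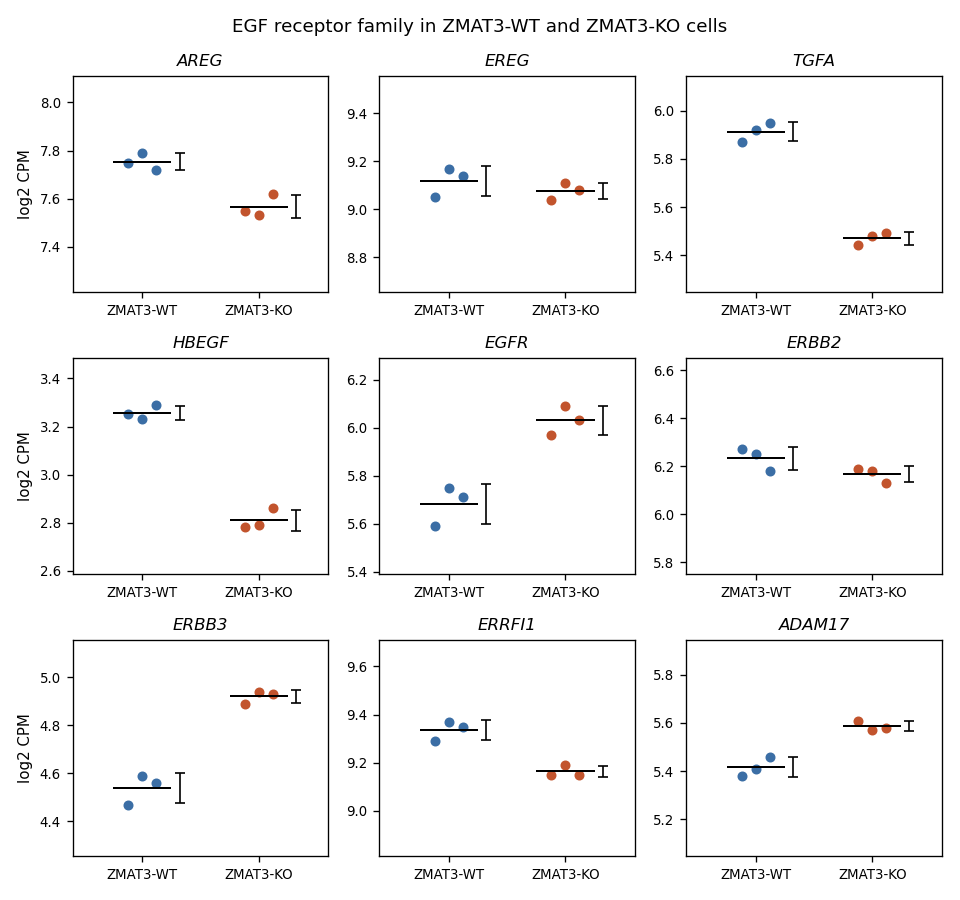
Log2 CPM (vertical axis) of the 9 genes in the 3 *ZMAT3*-WT and 3 *ZMAT3*-KO libraries; points are libraries, black lines are means and bars are SD. The panels of *EREG* and *ERBB2* show overlapping groups, and in the other 7 the groups are apart.

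Among the ligands, *TGFA*, which encodes transforming growth factor alpha, was at 5.87, 5.92 and 5.95 log2 CPM in *ZMAT3*-WT and at 5.44, 5.48 and 5.49 in *ZMAT3*-KO libraries. Every knockout library lay below every wild-type library. The log2 fold change was −0.44 (SE 0.035, 0.735-fold, limma adjusted p = 3.467e-07). *HBEGF*, whose product binds heparin as well as its receptor, was at 3.25, 3.23 and 3.29 log2 CPM in *ZMAT3*-WT and at 2.78, 2.79 and 2.86 in *ZMAT3*-KO libraries. Its groups were also apart, and it fell by 0.45 on the log2 scale (SE 0.061, 0.734-fold, limma adjusted p = 4.539e-05). *AREG* was at 7.75, 7.79 and 7.72 log2 CPM in *ZMAT3*-WT and at 7.55, 7.53 and 7.62 in *ZMAT3*-KO libraries. These groups did not overlap, and the difference was smaller, with a log2 fold change of −0.19 (SE 0.032, 0.878-fold, limma adjusted p = 0.0003044). *EREG*, next to *AREG* on the chromosome, was at 9.05, 9.17 and 9.14 log2 CPM in *ZMAT3*-WT and at 9.04, 9.11 and 9.08 in *ZMAT3*-KO libraries. The groups overlapped, and the 95% interval of its log2 fold change ran from −0.11 to 0.03 (limma adjusted p = 0.2987). Without *ZMAT3*-WT replicate 1, the lowest wild-type library, *EREG* stood at −0.075 with a limma adjusted p of 0.02227.

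Among the receptors, *EGFR* was at 5.59, 5.75 and 5.71 log2 CPM in *ZMAT3*-WT and at 5.97, 6.09 and 6.03 in *ZMAT3*-KO libraries. All knockout libraries were higher, with a log2 fold change of 0.34 (SE 0.046, 1.27-fold, limma adjusted p = 3.604e-05). *ERBB3*, the partner that docks PI3K, was at 4.47, 4.59 and 4.56 log2 CPM in *ZMAT3*-WT and at 4.89, 4.94 and 4.93 in *ZMAT3*-KO libraries. It too was higher in every knockout library, and rose by 0.38 on the log2 scale (SE 0.044, 1.3-fold, limma adjusted p = 1.077e-05). *ERBB2* was at 6.27, 6.25 and 6.18 log2 CPM in *ZMAT3*-WT and at 6.19, 6.18 and 6.13 in *ZMAT3*-KO libraries. The groups overlapped, and the 95% interval of the log2 fold change was −0.14 to 0.01 (limma adjusted p = 0.1274).

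*ERRFI1* was at 9.29, 9.37 and 9.35 log2 CPM in *ZMAT3*-WT and at 9.15, 9.19 and 9.15 in *ZMAT3*-KO libraries. The inhibitor was lower in every knockout library, with a log2 fold change of −0.17 (SE 0.028, 0.887-fold, limma adjusted p = 0.0002035). *ADAM17* was at 5.38, 5.41 and 5.46 log2 CPM in *ZMAT3*-WT and at 5.61, 5.57 and 5.58 in *ZMAT3*-KO libraries. The protease was higher in every knockout library, with a log2 fold change of 0.17 (SE 0.035, 1.12-fold, limma adjusted p = 0.001348). The genes closest to *HBEGF*, which had the largest absolute change of the 9 (by a narrow margin over *TGFA*), were *RHNO1*, *GATB* and *TRIAP1*. Over the 6 libraries, taken as deviations from the *ZMAT3*-WT mean, they lay at distances of 0.0276, 0.0494 and 0.052 log2 units from it, and their log2 fold changes were −0.44, −0.44 and −0.42. Fold changes near that of *HBEGF* follow from this choice, because the distance includes the knockout libraries.

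The second comparison asked which of these RNAs differ when p53 is depleted. With sip53, *ERRFI1* and *EREG* were higher and *TGFA* was lower at an unadjusted p under 0.05, the threshold the study used. That makes 2 of the 9 genes higher and 1 lower, against 5.86% and 9.28% of the 14274 genes tested, all 9 among them. Without siCTRL replicate 2, which leaves 1 control library, fewer of the 9 genes and fewer of all genes were called. At a limma adjusted p under 0.05, 0 of the 9 genes passed, as did 0.273% of all genes, and 3 of the 9 had an unadjusted p under 0.05. The values of the groups did not overlap for 7 of the 9 genes, against 46.4% of all genes. The median absolute log2 fold change of the 9 genes was 0.40, beside 0.28 for all genes tested. Fold changes are on the log2(FPKM + 0.1) scale. With 2 libraries a group the smallest two-sided p of an exact permutation test is 0.333, and with 3 a group it is 0.1, so limma, which borrows variance across genes, was used in both experiments.

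**Figure D2:**
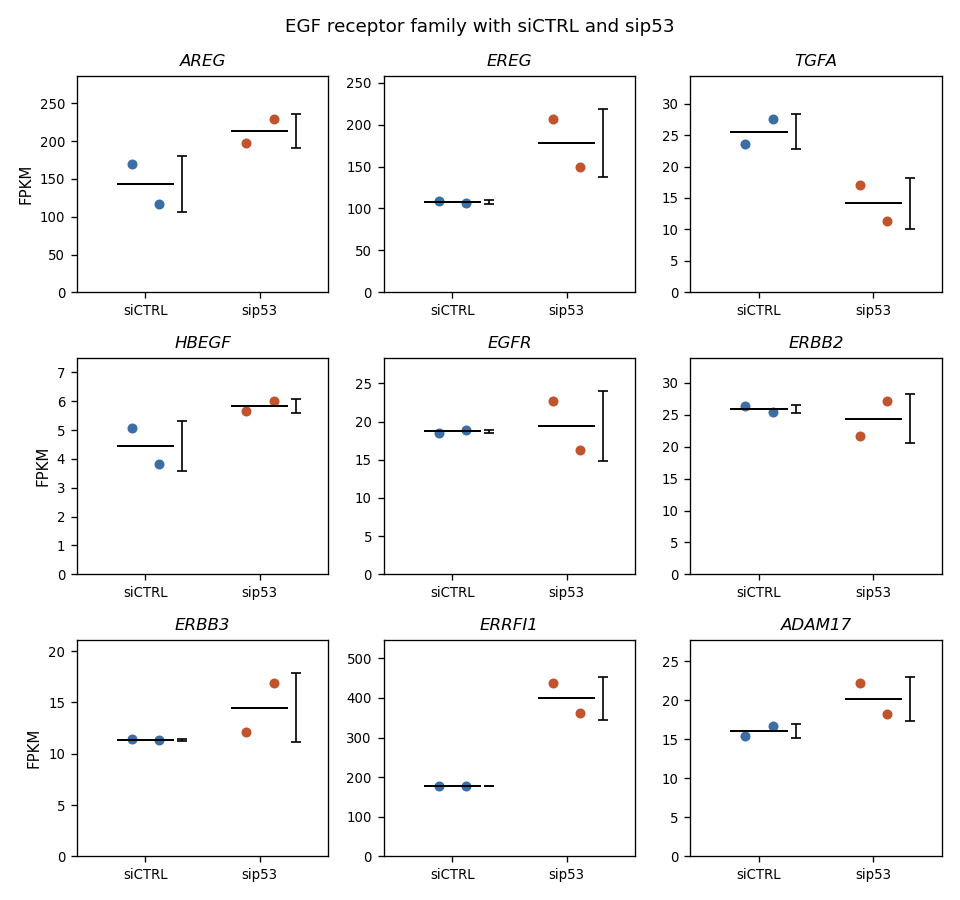
FPKM (vertical axis, each panel with its own range) of the 9 genes in the 2 siCTRL and 2 sip53 libraries; points are libraries, black lines are means and bars are SD. *ERRFI1* shows the widest gap between its groups, from 177 to 399 FPKM in the means.

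*ERRFI1* was at 177.23 and 176.92 FPKM with siCTRL and at 437.05 and 361.23 FPKM with sip53. Both sip53 libraries lay far above the controls, which were close together. The log2 fold change was 1.17 (SE 0.199, 2.24-fold, limma adjusted p = 0.1117), and the unadjusted threshold was passed with any of the 4 libraries left out.

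Among the ligands, *EREG* was at 109.43 and 106.16 FPKM with siCTRL and at 206.35 and 149.51 FPKM with sip53. Both sip53 libraries were higher, though they were far apart. The log2 fold change was 0.70 (SE 0.225, 1.63-fold, limma adjusted p = 0.2471). It no longer passed the unadjusted threshold without siCTRL replicate 1 (log2 fold change 0.73), siCTRL replicate 2 (0.68) or sip53 replicate 1 (0.47). *AREG* was at 169.17 and 116.59 FPKM with siCTRL and at 197.54 and 228.86 FPKM with sip53. Its groups did not overlap either, but the 95% interval of the log2 fold change of 0.60 reached from −0.03 to 1.23 (limma adjusted p = 0.3445). Without siCTRL replicate 1, the higher control, *AREG* stood at 0.87 and passed the unadjusted threshold. The siRNA table also lists *AREGB*, an older duplicate model of *AREG*, at 0.08 to 0.56 FPKM, far below the *AREG* values. Any division of reads between these entries was not tested.

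*TGFA* was at 23.58 and 27.51 FPKM with siCTRL and at 17.06 and 11.33 FPKM with sip53. Both sip53 libraries were below both controls. The log2 fold change was −0.87 (SE 0.254, 0.548-fold, limma adjusted p = 0.2219). That call was lost without siCTRL replicate 2 (−0.76) and without sip53 replicate 2 (−0.58). *HBEGF* was at 5.06 and 3.83 FPKM with siCTRL and at 5.65 and 6.0 FPKM with sip53. The groups were apart by less than 1 FPKM, and the 95% interval of the log2 fold change of 0.40 was −0.17 to 0.96 (limma adjusted p = 0.469).

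None of the 3 receptors passed (0 at an unadjusted or adjusted limma p under 0.05). *EGFR* was at 18.56 and 18.89 FPKM with siCTRL and at 22.66 and 16.22 FPKM with sip53, so the sip53 libraries lay on either side of the controls. The 95% interval of its log2 fold change was −0.53 to 0.59 (limma adjusted p = 0.9629). *ERBB2* was at 26.36 and 25.50 FPKM with siCTRL and at 21.65 and 27.12 FPKM with sip53, again on either side, with an interval of −0.59 to 0.39 (limma adjusted p = 0.858). Without sip53 replicate 1 the log2 fold change of *EGFR* went from 0.03 to −0.21 and that of *ERBB2* from −0.10 to 0.065. *ERBB3* was at 11.44 and 11.31 FPKM with siCTRL and at 12.08 and 16.86 FPKM with sip53. Both sip53 libraries were above the controls, but the interval was −0.24 to 0.89 (limma adjusted p = 0.55). *ADAM17* was at 15.46 and 16.69 FPKM with siCTRL and at 22.16 and 18.18 FPKM with sip53. These groups did not overlap, and the interval was −0.16 to 0.80 (limma adjusted p = 0.4919). Each of these 4 intervals spans 0 and reaches about 1.5-fold in at least 1 direction. In GENCODE release 44 the loci of *TGFA*, *EGFR*, *ERBB2*, *ERBB3*, *ERRFI1* and *ADAM17* overlap other annotated genes, and whether the siRNA libraries were counted by strand is not given in the sources used here.

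The experiments were normalised separately and share no library. *ZMAT3* RNA was lower in both, at −2.89 in *ZMAT3*-KO and −2.31 with sip53. *TGFA* was at −0.44 in *ZMAT3*-KO, past the adjusted p but not the 1.5-fold threshold, and at −0.87 with sip53, past the unadjusted p only. *ERRFI1* was at −0.17 and 1.17, past the same parts of the thresholds with opposite signs. *AREG* was at −0.19 and 0.60 and *HBEGF* at −0.45 and 0.40, with neither past the unadjusted p for sip53. A difference between the effects of the 2 perturbations was not tested.

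**Figure D3:**
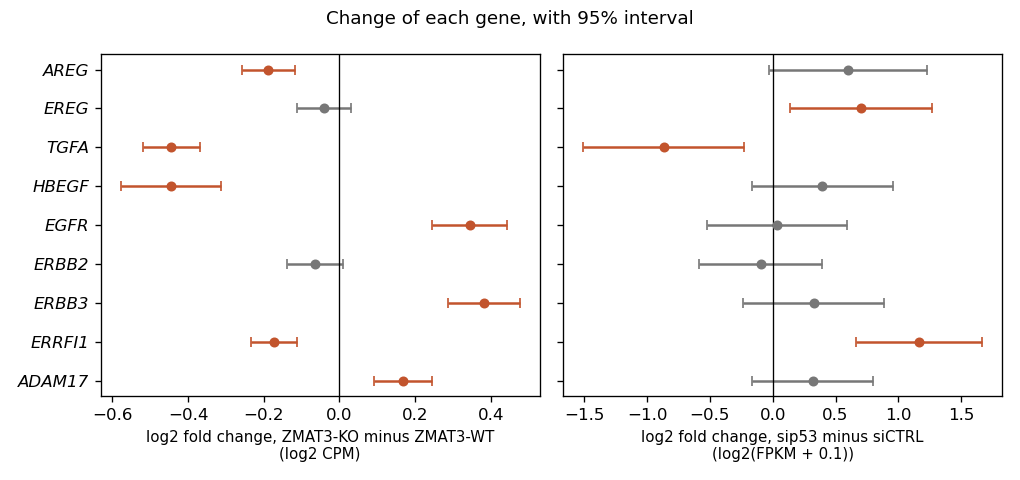
Log2 fold change (horizontal axis) of the 9 genes in *ZMAT3*-KO against *ZMAT3*-WT and in sip53 against siCTRL; points are limma estimates, bars are 95% intervals, and orange marks genes past the test of that experiment. The horizontal scales differ; the intervals of the sip53 comparison are wider throughout, and *TGFA* lies left of 0 and is orange in both.

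Other genes of the pathway were taken from a list of 48, of which 41 were in the *ZMAT3* table. At a limma adjusted p under 0.05, 13 had risen and 11 had fallen in the knockout clone, and 4 also reached 1.5-fold. Of all genes 28.7% and 30.1% passed the first threshold in these directions and 8.96% passed both, so the shares of the list were near those of all genes. The median log2 fold change of the 41 genes was 0.02 and their median absolute log2 fold change 0.15, beside −0.01 and 0.17 for all genes. *NRG4*, a neuregulin that binds ERBB4, was at 0.67, 0.88 and 0.89 log2 CPM in *ZMAT3*-WT and at 2.43, 2.36 and 2.48 in *ZMAT3*-KO libraries. It was the gene of the list with the largest difference, low in all libraries but higher in every knockout library (log2 fold change 1.61, 3.06-fold, limma adjusted p = 4.538e-08). *GAB1*, a docking protein that carries the receptor signal to PI3K and SHP2, was at 0.35, −0.11 and 0.05 log2 CPM in *ZMAT3*-WT and at 0.98, 0.89 and 1.09 in *ZMAT3*-KO libraries. It was also low and higher in every knockout library (0.89, limma adjusted p = 0.0003997). With 1 CPM added before taking logs the log2 fold change of *GAB1* was 0.53, under 1.5-fold, and 3 genes of the list were called. The count over all genes went from 1168 to 785 under that setting. *EPS8*, an EGFR kinase substrate that links the receptor to actin, was at 6.44, 6.55 and 6.55 log2 CPM in *ZMAT3*-WT and at 5.37, 5.37 and 5.46 in *ZMAT3*-KO libraries. It fell to 0.462-fold (log2 fold change −1.11, limma adjusted p = 2.235e-10). *UBASH3B*, a phosphatase that binds CBL and slows receptor loss, was at 5.90, 5.97 and 5.94 log2 CPM in *ZMAT3*-WT and at 5.25, 5.29 and 5.20 in *ZMAT3*-KO libraries, a log2 fold change of −0.69 (limma adjusted p = 9.469e-09). The clones did not overlap for any of these 4 genes, nor for 64.2% of all genes.

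By role, ligand release had 2 genes higher and 5 lower of 8 in *ZMAT3*-KO cells, with log2 fold changes of −0.32 for *ADAM9*, −0.33 for *ADAM10*, −0.35 for *ADAM19*, −0.23 for *RHBDF2* and −0.25 for *FRMD8*. None of the 8 (0, limma) also reached 1.5-fold, and the same adjusted p was passed by 28.7% of all genes higher and 30.1% lower. *ADAM10* is a main sheddase of EGF and betacellulin. The products of *RHBDF2* (iRhom2) and *FRMD8* belong to the protein complex that stabilises ADAM17 at the cell surface. *ADAM15* (0.39) and *RHBDF1* (0.24) were higher. The adaptors had 5 genes higher and 3 lower of 13, and receptor turnover 5 higher and 3 lower of 17. Of the other ligands, *BTC* (betacellulin) was at 2.03 to 2.23 log2 CPM in *ZMAT3*-WT and 1.97 to 2.29 in *ZMAT3*-KO libraries, and the interval of its log2 fold change was −0.20 to 0.24 (limma adjusted p = 0.8753). *NRG2* had an interval of −0.28 to 0.28 (limma adjusted p = 0.9878). *EPGN*, *NRG3*, *ERBB4*, *ADAM12* and *RHBDL2* were not analysed here in either experiment, nor were *EGF* and *NRG1* in this one.

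With sip53, 39 genes of the list were tested, and 0 were higher and 5 lower at an unadjusted limma p under 0.05; at an adjusted p under 0.05 the count was 0. Of all genes tested, 5.86% were higher and 9.28% lower at that unadjusted p, and 0.273% passed the adjusted one. The median log2 fold change of the 39 genes was −0.09 and their median absolute log2 fold change 0.30, beside −0.04 and 0.28 for all genes tested. *BTC*, on chromosome 4 at a distance of 289753 bases from *AREG*, was at 3.53 and 3.88 FPKM with siCTRL and at 1.66 and 1.71 FPKM with sip53. It was low in all libraries and lower in both sip53 libraries, with a log2 fold change of −1.09 (0.470-fold, limma adjusted p = 0.15). *RHBDF2* was at 34.13 and 26.50 FPKM with siCTRL and at 16.51 and 18.44 FPKM with sip53 (log2 fold change −0.78, limma adjusted p = 0.1991). *FRMD8* was at 10.89 and 13.43 FPKM with siCTRL and at 8.67 and 5.08 FPKM with sip53 (log2 fold change −0.86, limma adjusted p = 0.2877). Both of these partners of ADAM17 were thus lower in both sip53 libraries. *RHBDF1*, of the same role, was at 6.09 and 3.67 FPKM with siCTRL and 4.88 and 4.78 with sip53. Its log2 fold change was 0.03 (limma adjusted p = 0.9768). *SHC1*, the adaptor that brings GRB2 to the receptor, was at 126.46 and 88.99 FPKM with siCTRL and at 49.08 and 63.70 FPKM with sip53 (log2 fold change −0.92, limma adjusted p = 0.209). *CBLB*, a ubiquitin ligase for active receptors, was at 5.41 and 4.58 FPKM with siCTRL and at 2.88 and 2.79 FPKM with sip53 (log2 fold change −0.79, limma adjusted p = 0.201). Groups did not overlap for the 5 genes of the list that passed, nor for 46.4% of all genes tested. In *ZMAT3*-KO cells *SHC1* and *CBLB* were instead higher, at 0.20 and 0.43.

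Leaving out 1 library ended 4 of these 5 calls. Without siCTRL replicate 1 the calls of *SHC1* (−0.67), *CBLB* (−0.67) and *RHBDF2* (−0.60) were lost. Fewer of all genes were also called with any library left out, where 1 library remains in its group. The call of *FRMD8* was lost without siCTRL replicate 2 (−0.71) and without sip53 replicate 2 (−0.48), and that of *SHC1* also without sip53 replicate 1 (−0.73). *BTC* passed the unadjusted threshold whichever library was left out, at −1.16 to −1.02. *NRG1* was at 3.60 and 3.93 FPKM with siCTRL and at 5.20 and 3.87 FPKM with sip53 and did not pass (limma adjusted p = 0.6799). *EGF*, *NRG2*, *NRG4* and *TIMP3* had means under 0.5 FPKM and were not tested; *EGF* was at 0.05 and 0.12 FPKM with siCTRL and at 0.39 and 0.51 FPKM with sip53, and *NRG4* was at 0.09 to 0.21 FPKM in the 4 libraries. *GAB1*, *EPS8* and *UBASH3B* had log2 fold changes of −0.12, −0.0044 and −0.076 with sip53 and did not pass.

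**Figure D4:**
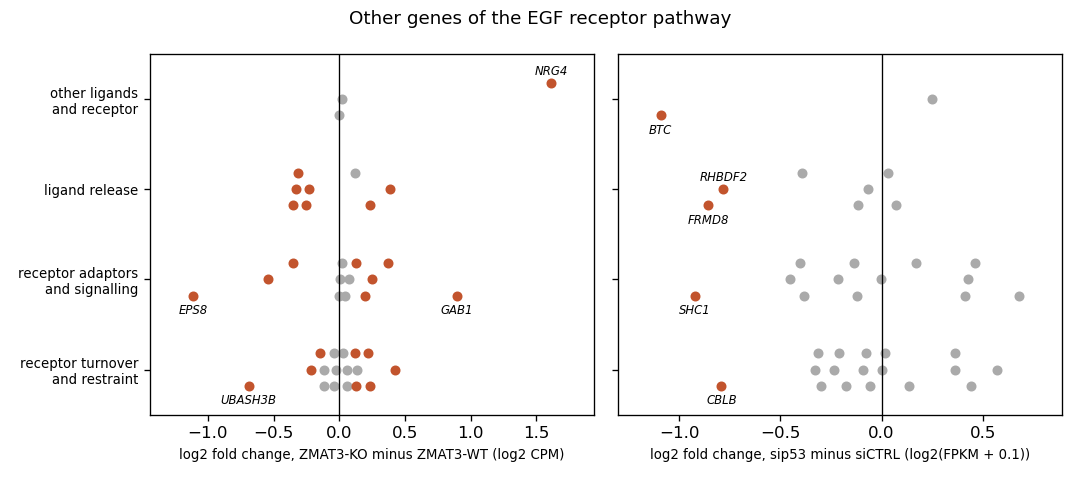
Log2 fold change (horizontal axis) of the genes of the pathway list, grouped by role, in *ZMAT3*-KO against *ZMAT3*-WT and in sip53 against siCTRL; each point is a gene, vertical offsets within a role only separate the points, the horizontal scales differ, and orange marks genes past the test of that experiment. Orange points lie on both sides of 0 in the *ZMAT3* comparison, 13 higher and 11 lower, and left of 0 in the sip53 comparison, where all 5 were lower.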

How the data were processed

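RNA-seq values of 10 HCT116 libraries were used, grouped by their labels. In the *ZMAT3* experiment the authors used Cutadapt on stranded reads, STAR for alignment to hg38 and RSEM for gene quantities, and deposited log2 CPM. The step to log2 CPM is not given in the sources used here; the 6 libraries shared 1 distribution, which can compress differences in total RNA. In the other table the authors deposited values that were taken as FPKM from their sums and from the deposited mean signal per gene, and the method behind them is not given in the sources used here. The submitters' processing notes name CASAVA 1.8.2, TopHat2 2.0.8, FastQC 0.11.2, hg19 and hg38 with no role. The authors' own deposited fold (ratio) values, log2 fold changes, test scores and p-values were left unused. Neither table holds counts, so no count model was fitted and depth is unknown.

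Each experiment had its own fit in limma 3.58.1 under R 4.3.3 (variance trend, two-sided, Benjamini-Hochberg adjustment over all genes tested). The *ZMAT3* fit took the log2 values of 13029 genes as deposited. The siRNA fit took log2(FPKM + 0.1) of the 14274 genes whose mean reached 0.5 FPKM. A call needed an adjusted p under 0.05 together with a 1.5-fold change in the first experiment, and an unadjusted p under 0.05 in the second. The fits were tested on simulated data. The members, the pathway list and the marker lists were chosen with earlier results of these data known. Named are the 9 members, *ZMAT3* and *CDKN1A*, the other ligands, and up to 4 called genes of the pathway list in each direction by size. Also named are the 3 genes nearest to the member with the largest change in *ZMAT3*-KO cells. The genes given by role, *GRB2* and *RHBDF1* with sip53, and the values set side by side were added after values were seen. Motifs were searched with Python 3.11.15, pandas 2.3.3 and numpy 2.4.6, and figures drawn with matplotlib 3.10.9.

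Alternatives were a pseudocount of 1, filters at a mean log2 CPM of 0 or a mean of 5 FPKM, no filter, median-gene centring, a fit without the variance trend, a block on replicate number, other call rules, and the omission of each library in turn.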

Additional observations from a re-analysis of the deposited data

How the results depend on the processing

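Of the 9 members' log2 fold changes under 11 alternatives in the *ZMAT3* experiment, 98 of 99 values kept their direction and side of the threshold, and of those under 10 alternatives in the siRNA experiment 80 of 90 did. Without the 1.5-fold threshold, 7 members and 24 genes of the pathway list were called in *ZMAT3*-KO cells; at an adjusted p under 0.05, 0 and 0 were called with sip53. With sip53, centring moved *AREG* to 0.67, past the threshold, and turned *EPS8* to 0.071 and *UBASH3B* to 0.00021. Centring and a pseudocount of 1 FPKM each left 6 pathway genes called, against 5 in the main fit. A mean of at least 5 FPKM left 3, with *BTC* and *CBLB* no longer tested, and 1466 of all genes. Without a filter 7 pathway genes were called, though not *FRMD8*, and 2636 of all genes, against 2161 in the main fit. The shift of the median gene was −0.0758 on the log2 scale there and −0.00052 in the *ZMAT3* experiment.

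With 1 library left out, *EREG* ranged from −0.075 to −0.017, *BTC* from −0.066 to 0.096 and *NRG2* from −0.10 to 0.085 in *ZMAT3*-KO cells; single values past 0 were −0.017, −0.0072 and −0.066 for *BTC* and 0.062, 0.026 and 0.085 for *NRG2*. With sip53, each such fit leaves 1 library in a group, and fewer of all genes were called in each than with every library. Called members were the same or fewer, and called pathway genes fewer or more. There *AREG* ranged from 0.33 to 0.87, *EREG* from 0.47 to 0.94, *TGFA* from −1.16 to −0.58, *EGFR* from −0.21 to 0.27, *ERBB2* from −0.26 to 0.065, *GAB1* from −0.64 to 0.40 (0.17 without sip53 replicate 1), *EPS8* from −0.17 to 0.16 and *UBASH3B* from −0.22 to 0.073. The causes were not tested.

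The replicate numbers did not pair the samples: same-numbered libraries correlated at −0.0387, −0.0218 and −0.093 in the *ZMAT3* experiment and at −0.616 in the siRNA experiment, where libraries with different numbers correlated at 0.616 over 14274 genes. With 2 libraries a group the deviations from the group mean mirror each other, so −0.616 and 0.616 are the same result with the sign turned. With the replicate block *EREG* had a log2 fold change of 0.70 with sip53 and neither it nor *CBLB* passed, and the block changed no other member's call. A crossed replicate block, chosen after seeing the data, called 6 members, 17 pathway genes and 5538 genes in all, against 3, 5 and 2161 without a block. Unknown depth and 2 libraries a group limit the siRNA comparison.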

Other observations

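The 4 ligands measured summed to 307.2 and 254.1 FPKM in the siCTRL libraries and to 426.6 and 395.7 FPKM in the sip53 libraries. *AREG* and *EREG* together made up 90.7% and 87.7% of that sum with siCTRL and 94.7% and 95.6% with sip53. The ratio of *EREG* to *AREG* was 0.65 and 0.91 with siCTRL and 1.04 and 0.65 with sip53, so its groups overlapped. These sums are a description and were not tested.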
